A study of Mus musculus with 12 samples.

Results

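The integrated stress response was described here through 10 genes: the transcription factor genes Atf4, Atf5 and Ddit3, the feedback and stress genes Trib3, Chac1 and Sesn2, and the amino acid genes Asns, Psat1, Phgdh and Slc3a2. They were taken by symbol from the deposited table of 15391 genes, and all 10 had a row. The question was how they stood in cultured sensory neurons when Larp1 was knocked down; LARP1 is an RNA-binding protein of the cap and of the pyrimidine-rich start that mRNAs for the translation machinery share. Every sample came from adult mouse dorsal root ganglion neurons of genotype RPL22HA+/+;Advillin-Cre+, taken after a sciatic nerve injury (preconditioned in the labels). Cre driven by Advillin, a gene active in sensory neurons, switches on an HA-tagged Rpl22 in those cells, so an HA immunoprecipitate (IP) is meant to hold the mRNA of their ribosomes. Input RNA comes from the whole culture. The groups were shLarp1 IP, control IP, shLarp1 input and control input, with 3 columns of counts each. The virus was AAV-shLarp1, or a control worded AAV-Control for the IP and AAV-shControl for the input.

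In the integrated stress response, kinases sense amino acid lack, unfolded proteins in the endoplasmic reticulum, heme lack or double-stranded RNA, and phosphorylate the initiation factor eIF2. General initiation then slows, while the mRNAs of Atf4, Atf5 and Ddit3, which carry upstream reading frames, are translated better. ATF4 binds as a dimer with C/EBP proteins to C/EBP-ATF response elements (CARE) and switches on genes for amino acid synthesis, amino acid uptake and tRNA charging, together with genes that end the response or lead to cell death. In injured sensory neurons the pathway is one of several stress pathways active after axon damage.

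The CARE is a sequence that ATF4 binds, and 2 of the 10 genes carried a match to the motif searched here before the annotated start. The windows of RefSeq (build GRCm38.p6, 250 bases before to 50 after a start) covered all 10 genes with 12 starts. The motif TGATGNAAN, searched on both strands, was in 3 of these 12 windows and in 3.95% of all 32851 windows. In 3.44% of all windows it lay before the start. A CARE outside these windows or with other letters would not be seen, so a gene without a match may still be a target. It overlaps the stricter TGATGCAA, which was in 0.895% of all windows and, among the 10 genes, in Chac1. The other match lay at position 14 of the Trib3 transcript. Neither the cyclic AMP response element TGACGTCA (1.79% of windows) nor the endoplasmic reticulum stress response element (0.119%) was found in the 12 windows, which says only that these letters are not there. The matches before the start are printed 5′ to 3′ along the gene's strand, with the motif in capitals. In Asns it begins at position -23 from the start (chr6:7693210-7693257, minus strand), and in the human gene the same letters are known as the nutrient-sensing response element. In Chac1 it begins at position -194, read on the opposite strand (chr2:119351023-119351081, plus strand).
Asns: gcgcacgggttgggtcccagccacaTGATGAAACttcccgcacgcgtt
Chac1: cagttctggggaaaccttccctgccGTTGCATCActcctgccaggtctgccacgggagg

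The IP columns held 3126591 to 3177552 counts and the input columns 564095 to 760140. The 3 columns of a group had totals within 0.0344% to 0.0939% of each other, closer than Poisson sampling gives, and 6.98% to 7.62% of genes with at least 30 counts differed among them by a chi-square test at 0.05. None of the 10 genes did where it had at least 30 counts in the group. The rule was to count columns as 1 sample where they differed by no more than sampling noise. The shares found lay slightly above the 0.05 that such noise alone would give, and separate cultures or animals are not named. The columns were counted as 1 sample per group: each group has n = 1, no difference has a replicate check, and no p-value is given. A value is a summed count, a level in TMM-scaled CPM, or a log2 ratio with an exact 95% (Clopper-Pearson) interval. These intervals cover counting error only, and PCR copies are not independent molecules. The word called is used for a gene whose whole interval lay beyond 1.5-fold.

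Larp1 was lower with shLarp1, at 55, 49 and 45 counts in the shLarp1 IP columns, against 147, 141 and 154 in the control IP (log2 ratio -1.72, -2.0 to -1.45). Input held 3, 3 and 2 counts with shLarp1 and 5, 7 and 6 with the control virus (log2 ratio -1.37, -2.78 to -0.09, not called). Neuron markers fixed for this work were higher in the IP than in input: 11 of 13 were called higher with shLarp1 (median log2 ratio 2.04) and 10 of 13 with the control virus (1.99). Of all genes, 25.9% and 23.0% were called higher, with medians of 0.84 and 0.65. Markers of Schwann cells and satellite glia had medians of 0.10 and -0.02 over 9 genes, and the summed level of those markers was 407 to 411 CPM in the shLarp1 IP and 425 to 427 in the control IP.

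In the IP, none of the 8 genes that passed the filter on low counts was called higher or lower with shLarp1, against 5.13% of the 8757 genes tested (0.719% higher and 4.41% lower). Their log2 ratios ran from -0.21 to 0.25 with a median of 0.09 (0.06 to 0.22 over the alternatives, 0.17 without any 1 input column), and 6 of the 8 lay above the median of all genes, -0.08. Trib3 and Sesn2 did not pass the filter, so these 8 are not the whole set. Sesn2 stood apart, at a level 3.45-fold lower in the shLarp1 IP by its few counts.

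**Figure D1:**
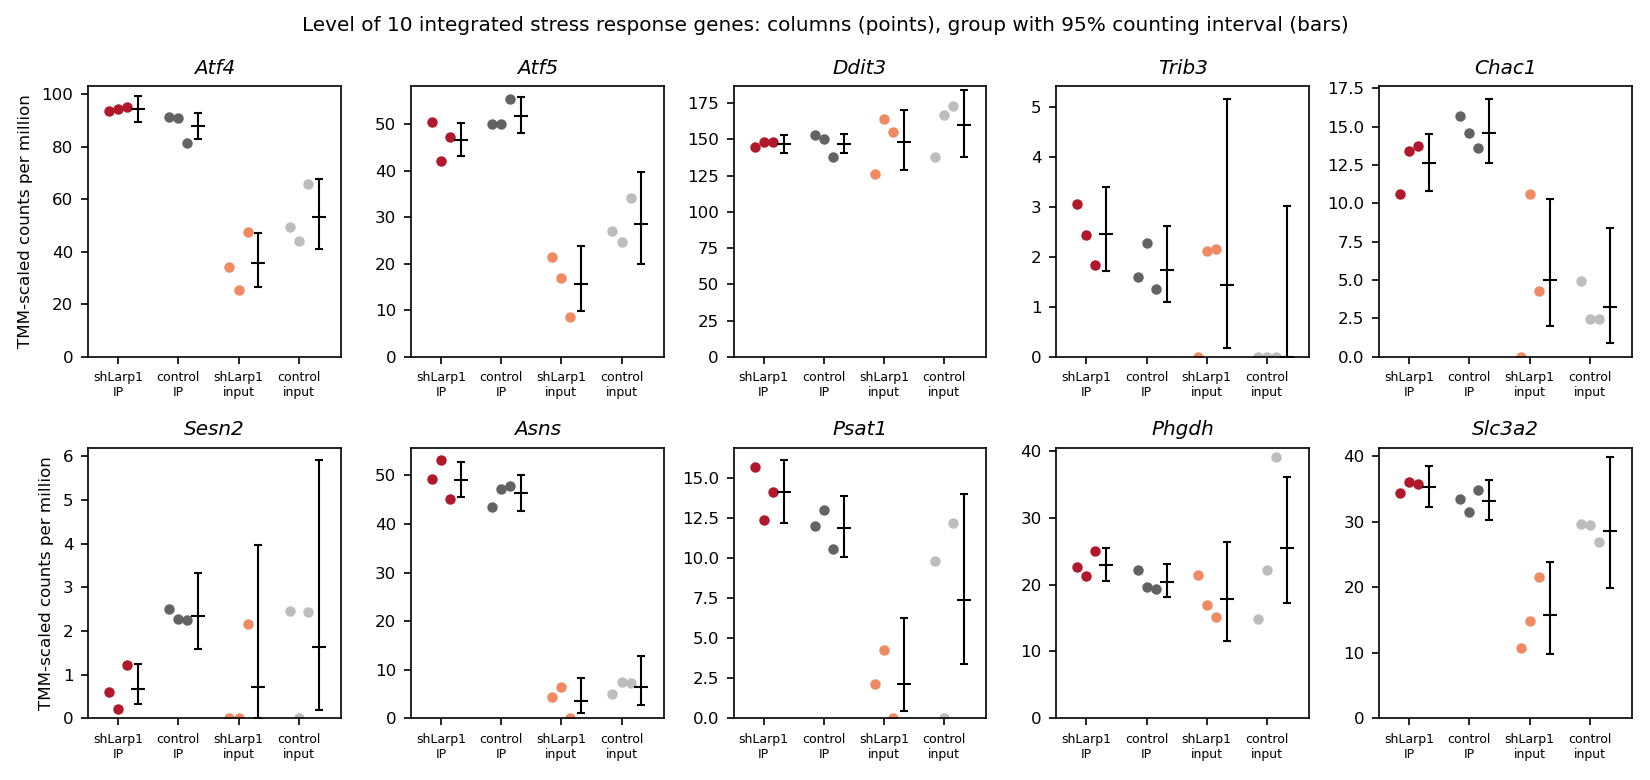
Level of each of the 10 genes in TMM-scaled CPM (linear axes from 0) in the shLarp1 IP, control IP, shLarp1 input and control input. Points are the 3 columns of a group and the black bar is the group's level with its 95% counting interval; Atf4 stands at 94.4 and 87.9 in the IP and at 35.7 and 53.2 in input, while Ddit3 stands between 147 and 160 in all groups.

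Atf4, the transcription factor at the centre of the response, had 459, 464 and 464 counts in the shLarp1 IP columns, against 403, 400 and 360 in the control IP. After scaling the shLarp1 columns lay at 93.6 to 95.1 CPM and the control columns at 81.4 to 91.4, so they did not overlap, and Atf4 was the one gene of the 8 whose IP columns did not. Non-overlap was common: 43.2% of all genes tested showed it, 14.3% with shLarp1 higher and 28.9% with shLarp1 lower. The log2 ratio was 0.10 (-0.01 to 0.22), a level of 94.4 CPM in the shLarp1 IP and 87.9 in the control IP, which is a 1.07-fold difference and not a call.

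Atf5, a paralog of ATF4 tied to the mitochondrial stress response, had 248, 207 and 231 counts with shLarp1 and 221, 220 and 245 with the control virus. Both sums were 686, and the log2 ratio was -0.15 (-0.31 to 0.0), which is the value of equal counts under this scaling. Ddit3, which encodes the pro-apoptotic factor CHOP, had 712, 727 and 724 counts against 674, 660 and 610, with a log2 ratio of 0.00 (-0.09 to 0.09). Its columns overlapped after scaling, and its interval was the narrowest of the 10 genes. In RefSeq the locus of Ddit3 overlaps those of Mbd6 and Mars1, and that of Atf5 overlaps Nup62. Strand use in the counting is not given in the sources used here, so reads of these neighbours cannot be told apart.

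Trib3 encodes a pseudokinase that restrains ATF4 and CHOP. It held 15, 12 and 9 counts in the shLarp1 IP columns and 7, 10 and 6 in the control IP, with a log2 ratio of 0.49 (-0.3 to 1.32). Chac1, which degrades glutathione, had 52, 66 and 67 counts against 69, 64 and 60 (log2 ratio -0.21, -0.51 to 0.09), and its columns overlapped.

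Sesn2 encodes sestrin 2, a leucine sensor that inhibits mTORC1. Its counts were 3, 1 and 6 in the shLarp1 IP columns and 11, 10 and 10 in the control IP, and the highest shLarp1 column lay below the lowest control column. The log2 ratio was -1.78 (-2.98 to -0.72), wholly beyond 1.5-fold lower. It rests on 10 and 31 counts and falls outside the filtered table. Without the filter, and with the scaling factors kept, the same rule called 7.07% of 15365 genes, 5.05% lower. Sesn2 is thus singled out after its values were seen, and a sum of 10 counts from PCR-amplified libraries is thin.

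The amino acid genes had IP ratios slightly above the all-gene median, with no call. Asns, which makes asparagine, had 241, 261 and 220 counts with shLarp1 and 192, 208 and 212 with the control virus (log2 ratio 0.09, -0.07 to 0.24). Psat1 and Phgdh encode consecutive enzymes of serine synthesis. Psat1 had 77, 61 and 69 counts against 53, 57 and 47, the highest log2 ratio of the 8 (0.25, -0.06 to 0.56). Phgdh had 111, 104 and 122 counts against 98, 86 and 86 (0.17, -0.07 to 0.40). Slc3a2, the heavy chain of several amino acid exchangers including the leucine transporter, had 168, 177 and 174 counts against 147, 138 and 154 (0.09, -0.10 to 0.28). Scaled columns of all 4 genes overlapped between the viruses. The upper bounds of these intervals, 0.24 to 0.56, all lay below 1.5-fold with TMM scaling. Under that scaling an increase of that size in the IP was outside the counting error for each of them. Upper-quartile or total-count factors moved all ratios of this comparison up by 0.13, which takes the bound of Psat1 past 1.5-fold.

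**Figure D2:**
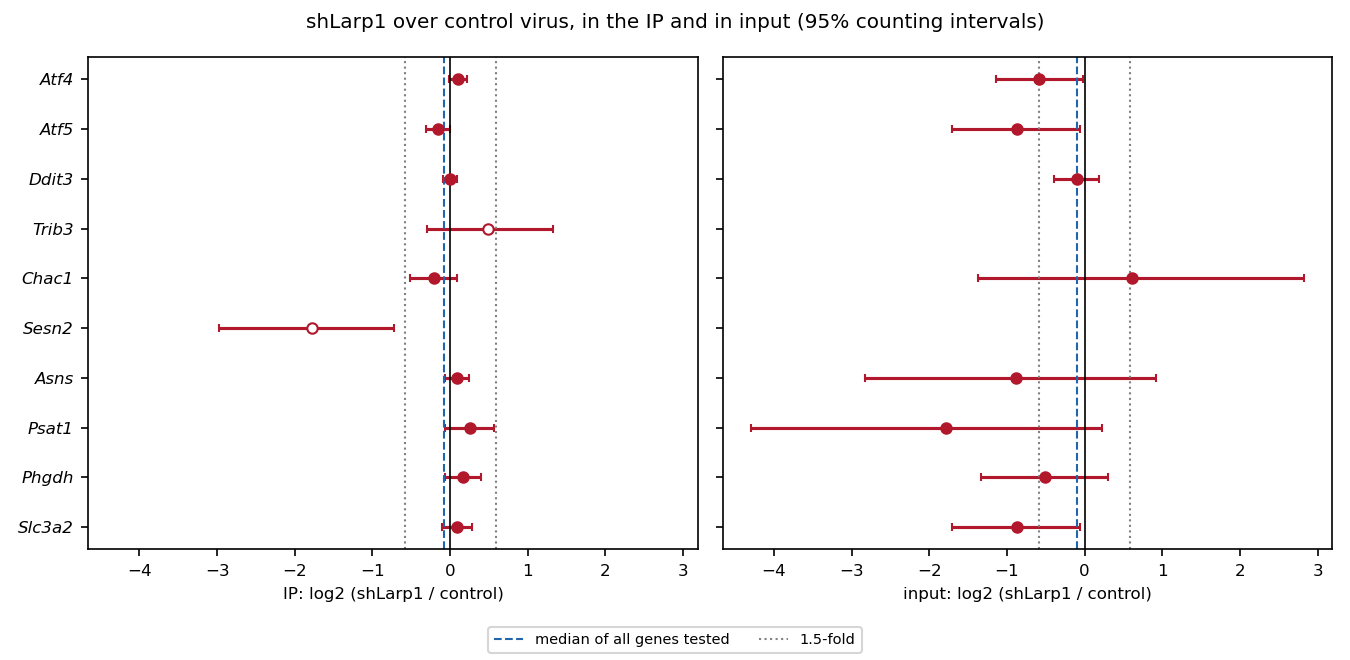
Log2 ratio of shLarp1 over control for each gene in the IP (left) and in input (right), with 95% counting intervals; open circles are genes that did not pass the filter. In the IP the 8 filtered genes lie between -0.21 and 0.25 and Sesn2 at -1.78. In input 7 of the 8 lie below 0 with TMM scaling, where the median of all genes is -0.10.

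In input, Atf4, Atf5, Asns, Psat1, Phgdh and Slc3a2 had log2 ratios below the median of all genes, Ddit3 stood at that median and Chac1 above it. None was called, against 1.36% of 6597 genes tested, and the median was -0.72 beside -0.10 for all genes. Of the 8, 7 had a log2 ratio below 0 with TMM scaling, and Chac1 was above it. This count depends on the scaling: DESeq2 size factors moved all input ratios up by 0.21, which takes Ddit3 above 0. Apart from Ddit3, the summed input counts of these genes ranged from 3 to 65, and their intervals were wide.

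Atf4 had 16, 12 and 22 counts in the shLarp1 input columns and 20, 18 and 27 in the control input. Scaled to depth this is 35.7 CPM against 53.2, a log2 ratio of -0.58 (-1.14 to -0.02), and the columns overlapped. Atf5 had 10, 8 and 4 counts against 11, 10 and 14 (log2 ratio -0.87, -1.71 to -0.06). Slc3a2 had 5, 7 and 10 against 12, 12 and 11, with the same sums, ratio and interval as Atf5. For Atf5 and Slc3a2 every shLarp1 column lay below every control column after scaling, as 15.4% of all genes did. These are 2 of 8 genes, and non-overlap in either direction was seen in 27.2% of genes.

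Ddit3 was the gene of the set with the most input counts, 59, 77 and 72 with shLarp1 and 56, 68 and 71 with the control virus. Its log2 ratio of -0.10 (-0.39 to 0.19) equals the median of all genes, and its columns overlapped. Phgdh had 10, 8 and 7 counts against 6, 9 and 16 (-0.51, -1.33 to 0.30). For Asns (5 counts in shLarp1 input and 8 in control input), Psat1 (3 and 9) and Chac1 (7 and 4) the intervals reached from -4.3 to 2.83, and no difference was detectable at this depth. Trib3 had 2 counts in shLarp1 input and 0 in control input, and Sesn2 had 1 and 2, so no ratio is given.

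The summed level of the neuron markers in input was 1590 to 1670 CPM in the shLarp1 input columns and 2570 to 2690 in the control input, with Uchl1 the one marker called (log2 ratio -1.12, -1.24 to -1.0). Uchl1 also held the most input counts of the 13, 935 with shLarp1 and 1772 with the control virus, so the fall in the sum lies largely in that gene. The median of all 13 was -0.25, and none was at 0 counts. Endothelial and mural markers were at 76.4 to 109 CPM in shLarp1 input and 148 to 153 in control input. Glial markers were at 527 to 589 and 471 to 517, with a median log2 ratio of 0.03, and macrophage markers at 102 to 107 and 153 to 165. Fibroblast markers were at 467 to 568 CPM in shLarp1 input and 362 to 444 in control input, without overlap, and 1 of 8 was at 0 in each. Of the endothelial and mural markers, 2 of 7 were at 0 in shLarp1 input and 0 of 7 in control input. Acta2 held most of the counts of that list (118 in shLarp1 input and 157 in control input). Among macrophage markers Lyz2 held 53 and 95. The part of these shifts in the values of the 8 genes was not tested. In bulk RNA, fewer cells of a type and less RNA per cell cannot be told apart. The level of the input comparison also depends on the scaling, which moved the median of all genes by -0.23 to 0.23, while the order of genes within it does not. The median of the 8 genes was -0.95 to -0.49 over the scalings tried. Leaving out any 1 input column moved it up, from -0.60 without control input column 1 to -0.27 without shLarp1 input column 3. It was -0.44 without shLarp1 input column 1 and -0.33 without control input column 3. The filter and the scaling were recomputed each time, so the weight of a column cannot be told apart from a shift of scaling.

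Whether the virus effect differed between fractions was asked with the ratio of ratios, IP over input (0.5 counts added to each group, normal interval). None of the 8 genes was called, against 7.95% of 6481 genes tested (6.42% lower). The median was 0.69 beside 0.07 for all genes, and 7 of the 8 lay above that median. Without shLarp1 input column 3 the median of the genes was 0.34, without control input column 3 it was 0.39, and with total counts it was 1.05. The intervals of Atf4 (0.67, 0.13 to 1.22), Slc3a2 (0.94, 0.16 to 1.73) and Psat1 (1.88, 0.09 to 3.68) lay above 0 without reaching the rule. Those of Atf5 (0.70, -0.07 to 1.48), Phgdh (0.67, -0.12 to 1.46), Asns (0.91, -0.64 to 2.47) and Chac1 (-0.75, -2.46 to 0.96) included 0. Ddit3 had 0.11 (-0.19 to 0.40). Neuron markers had a median of 0.34, and Uchl1, a neuronal deubiquitinase, had 1.36 (1.24 to 1.47). The 3 genes whose pattern over the 4 groups was nearest to that of Atf4, among 1947 genes with at least 30 counts in every group, were Acot7, an acyl-CoA thioesterase, Cnbp, a nucleic acid-binding protein, and the stathmin Stmn3. Their root mean square differences in centred log2 level were 0.0368, 0.0415 and 0.0415. Atf4 itself had 50 and 65 input counts, at levels of 35.7 CPM (26.5 to 47.0) with shLarp1 and 53.2 (41.0 to 67.8) with the control virus. That counting error is larger than these differences, so which genes lie nearest is not settled.

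The IP-over-input ratio showed how far each mRNA was found with tagged ribosomes rather than in the whole culture, and here the 10 genes differed among themselves. With shLarp1, Asns, Psat1, Atf5 and Atf4 were called higher in the IP, 4 of 8 against 25.9% of 8771 genes. With the control virus, Asns and Chac1 were, 2 of 8 against 23.0% of 8773 genes. Asns, Psat1 and Chac1 had at most 5 counts in any input column and passed the low-count filter by their IP counts. The filter thus let them in by the fraction where they were then called higher, so their calls and these shares are description only. The medians of the 8 were 1.37 and 0.71, beside 0.84 and 0.65 for all genes. The first was 0.77 without shLarp1 input column 1, 0.87 with upper-quartile factors and 2.71 with total counts. The second was 0.22 without control input column 2, 0.22 with upper-quartile factors and 1.69 with total counts. The calls of Psat1 and Atf5 ended without shLarp1 input column 3 (2.06 and 1.20), and that of Chac1 without control input column 2 or 3 (2.04 each). Both directions together, 39.0% and 35.5% of all genes were called.

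Asns had the highest ratio with both viruses. Its 722 IP counts stood against 5 input counts with shLarp1, a log2 ratio of 3.78 (2.55 to 5.41), and 612 against 8 with the control virus, 2.82 (1.83 to 4.04). Of all genes tested, 95.6% and 90.8% lay lower. Atf4 had 1.40 (1.00 to 1.84) with shLarp1 and 0.73 (0.36 to 1.11) with the control virus, and Atf5 had 1.57 (0.96 to 2.26) and 0.86 (0.37 to 1.39). For these 3 genes and for Slc3a2 every IP column lay above every input column with either virus. Psat1 did so with shLarp1 and Chac1 with the control virus, which made 5 of the 8 genes with each virus. Of all genes, 54.1% did so with shLarp1 and 48.0% with the control virus (19.9% of genes lay below without overlap there).

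Ddit3 and Phgdh had the lowest ratios of the 8 with both viruses. Ddit3 had 2163 IP and 208 input counts with shLarp1 (log2 ratio -0.01, -0.22 to 0.20) and 1944 and 195 with the control virus (-0.12, -0.33 to 0.10). Both intervals of Ddit3 lay wholly below the median of all genes, and 27.2% and 29.9% of genes lay lower still; with total-count scaling, which moves all genes up, the 2 values became 1.33 and 0.86. Phgdh, an enzyme that glia are known to express strongly in the brain, had 0.36 (-0.23 to 1.01) and -0.31 (-0.85 to 0.27). Slc3a2 had 1.17 (0.56 to 1.86) and 0.21 (-0.29 to 0.75), Chac1 1.33 (0.26 to 2.67) and 2.16 (0.78 to 4.05), and Psat1 2.72 (1.15 to 5.01) and 0.69 (-0.27 to 1.84). Trib3 had 36 IP and 2 input counts with shLarp1 (0.78, -1.18 to 3.88) and 23 and 0 with the control virus. Sesn2 had 10 and 1 (-0.07, -2.88 to 5.37), and 31 and 2 (0.52, -1.46 to 3.63).

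**Figure D3:**
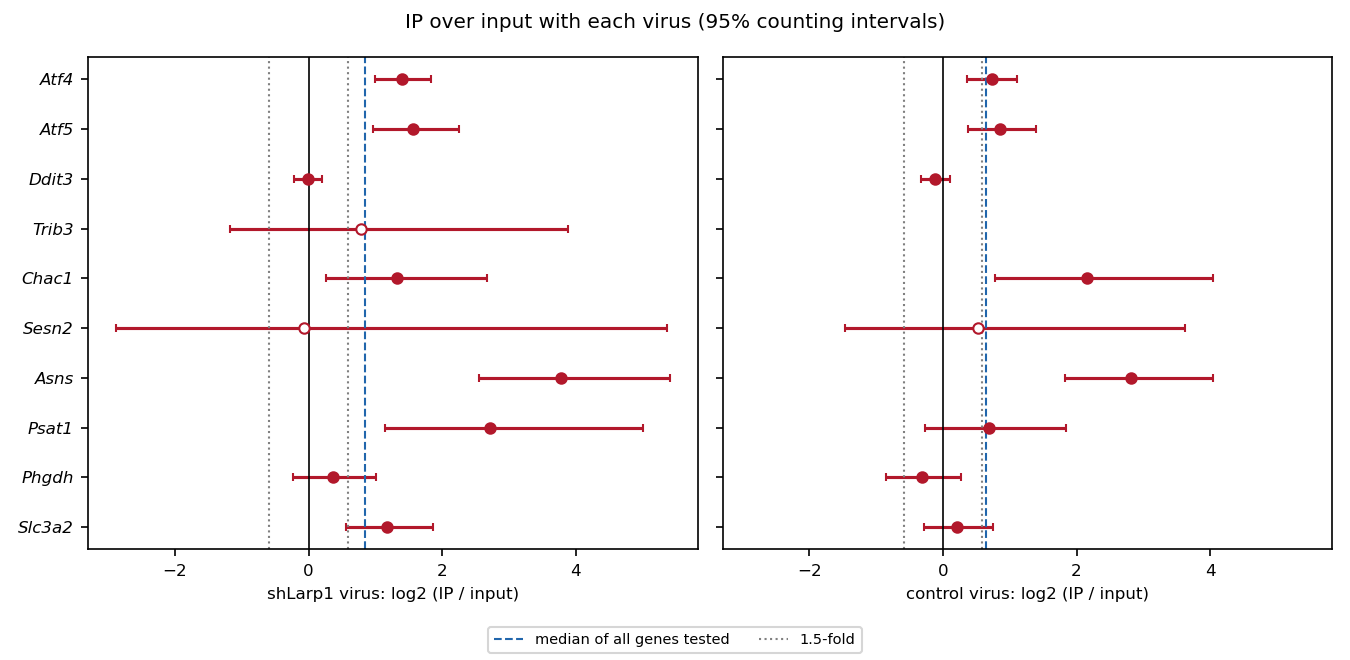
Log2 ratio of IP over input for each gene with shLarp1 (left) and with the control virus (right), with 95% counting intervals; open circles did not pass the filter, and Trib3 has no control ratio because its control input count is 0. Asns lies highest at 3.78 and 2.82, and Ddit3 lies near 0 on both sides, below the dashed median of all genes.

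Other ATF4 targets gave 1 call in the IP. Of 13 genes for tRNA charging and export, none was called and 11 lay above the median of all genes (median log2 ratio 0.12); Nars, the asparaginyl-tRNA synthetase, had 3040 counts in the shLarp1 IP and 2544 in the control IP (0.10, 0.03 to 0.18). Amino acid transport genes had a median of 0.21 with 0 of 5 called, and Slc38a2, a glutamine carrier, had -0.33 (-0.58 to -0.09). Amino acid synthesis genes had 0.05 with 0 of 7 called, and Got1, the cytosolic aspartate aminotransferase, had 0.15 (-0.07 to 0.37). Stress effectors had a median of 0.02, and 1 of 13 was called: Atg5, an autophagy conjugation factor, was lower (33 counts in the shLarp1 IP and 69 in the control IP, -1.22, -1.86 to -0.60). The most counted of them, the autophagosome protein gene Map1lc3b, had -0.02 (-0.07 to 0.02).

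Among kinases, eIF2 subunits, exchange factors and phosphatases, 0 of 19 were called in the IP (median -0.01), and Eif2s2, the eIF2 beta subunit, had 0.04 (-0.03 to 0.11). Of 16 dimer partners and stress transcription factors, 2 were lower, where 4.41% of all genes were: Maf, a large bZIP factor (60 counts in the shLarp1 IP and 114 in the control IP, -1.08, -1.55 to -0.61), and Atf7, a CRE-binding factor (2857 and 4228, -0.72, -0.79 to -0.65). The calls of Maf, Atf7 and Atg5 depended on the scaling: with upper-quartile or total-count factors, and with any 1 input column left out, none of the 3 passed the rule (-0.95, -0.59 and -1.09 with upper-quartile factors). Atf7 was lower in the IP than in input with both viruses (-3.26 with shLarp1 and -2.11 with the control virus). The other arms of the unfolded protein response had the lowest median of the stress lists, -0.22 with 0 of 17 called, and the endoplasmic reticulum chaperone gene Calr had -0.31 (-0.41 to -0.21). Mitochondrial stress genes had -0.10 with 0 of 9 called, and the chaperonin gene Hspe1 had -0.06 (-0.11 to -0.01).

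**Figure D4:**
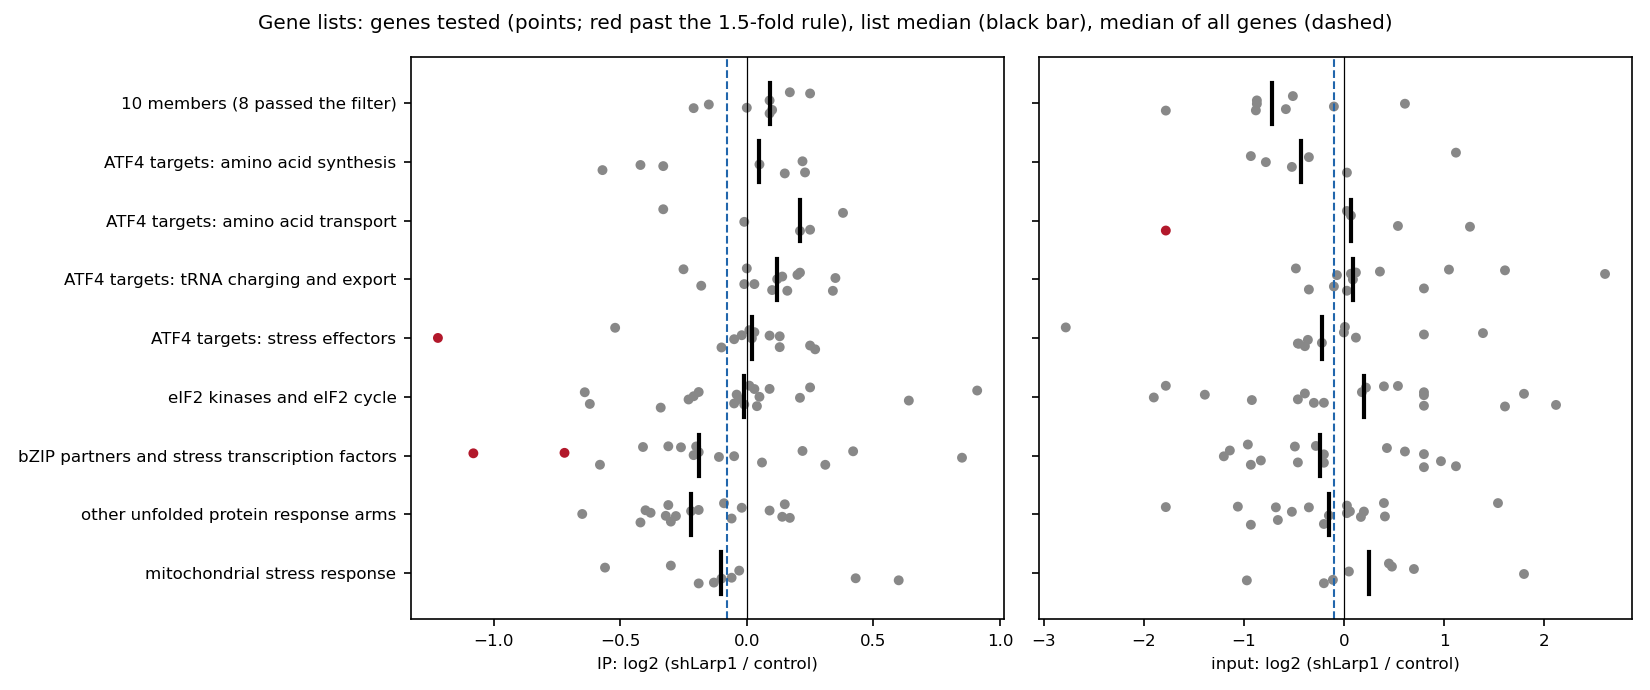
Log2 ratio of shLarp1 over control in the IP (left) and in input (right) for every tested gene of 9 lists; red points are past the 1.5-fold rule, black bars are list medians and the dashed line is the all-gene median. In the IP the ATF4 target lists have medians between 0.02 and 0.21 and the other unfolded protein response arms -0.22; in input the 10-gene list lies lowest, at -0.72.

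In input, Slc6a9, a glycine transporter, was the called gene of these stress lists, with 0 counts with shLarp1 and 9 with the control virus. With the summed shLarp1 count set to 3 it was 3.44-fold lower. That value follows from the count chosen, and the counting interval allows a smaller fall. The call ended when any of the 3 shLarp1 input columns, or the control input column 1 or 3, was left out, with log2 values at that setting of -1.30 to -0.97. The input medians were -0.43 (amino acid synthesis, 6 genes), 0.07 (transport, 5), 0.09 (tRNA charging, 13), -0.22 (stress effectors, 11), 0.20 (eIF2 cycle, 18), -0.24 (partner factors, 16), -0.15 (other unfolded protein response arms, 17) and 0.25 (mitochondrial stress, 8). In the ratio of ratios, Gcn1, the activator of the kinase GCN2 (-1.04, -1.18 to -0.91), and Atf7 (-1.15, -1.26 to -1.04) were lower; with total-count scaling Gcn1 (-0.68) no longer passed the rule. Both were lower in the IP than in input with both viruses, and Gcn1 had -3.92 with shLarp1 and -2.87 with the control virus.

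Between IP and input, genes of the other lists differed among themselves. With shLarp1, 7 of 13 tRNA charging genes were called higher and 2 lower in the IP, against 25.9% and 13.1% of all genes. The highest was the glycyl-tRNA synthetase Gars (2.73, 2.09 to 3.47), with Cars at 2.08 and Lars at 2.04. The threonyl-tRNA synthetase Tars (-3.08, -3.25 to -2.91) and Eprs (-1.21) were lower. With the control virus 6 were higher and 2 lower, against 23.0% and 12.5% of all genes. Gars stood at 3.78 (2.80 to 5.0), Lars at 3.44 (1.57 to 6.49, on 2 input counts), Xpot at 3.15 (0.64 to 8.47, on 1 input count) and Tars at -2.47. Among stress effectors the growth arrest gene Gadd45a (1.96 with shLarp1 and 1.61 with the control virus) and the autophagy receptor Sqstm1 (1.99 and 1.61) were higher with both. The translation repressor gene Eif4ebp1 (-1.24 and -1.34) and the stress gene Nupr1 (-1.17 and -1.28) were lower with both, but with total-count scaling Eprs, Eif4ebp1 and Nupr1 stood at 0.13, 0.10 and 0.18 with shLarp1. Atf3, an injury-induced factor of the ATF family, was higher (3.43, 2.65 to 4.34, with shLarp1, and 2.52, 1.92 to 3.2, with the control virus), and so was Jun (1.80 and 1.19). The endoplasmic reticulum chaperone genes Hspa5 (1.42 and 2.14) and Hsp90b1 (1.32 and 1.93) were higher too, and Hyou1 (-1.83 and -1.67) was lower. Among amino acid genes, Got1 (2.22) and the mitochondrial folate enzyme Mthfd2 (1.80) were called with shLarp1, and Slc38a2 (2.73) with the control virus.

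Other lists also held calls in IP over input, where 25.9% of all genes were called higher with shLarp1 and 23.0% with the control virus. With shLarp1 they were Herpud1, a gene of endoplasmic reticulum-associated degradation (3.48, 0.97 to 8.80), Nfe2l1, a proteasome gene regulator (2.13, 1.35 to 3.05), the mitochondrial co-chaperone Dnaja3 (2.52, 0.63 to 5.58) and the mitochondrial protease Lonp1 (1.67, 0.61 to 3.0). With the control virus they were the eIF2 gamma subunit Eif2s3x (3.22, 1.34 to 6.27), the heme-sensing kinase Eif2ak1 (2.62, 0.74 to 5.68), the exchange factor subunit Eif2b5 (2.22, 0.64 to 4.51), Sel1l of endoplasmic reticulum-associated degradation (2.29, 0.72 to 4.58) and the mitochondrial chaperone Trap1 (3.90, 1.41 to 9.22). Hspa9, the mitochondrial HSP70, was called with both (1.47 and 2.25). The genes called with 1 virus had ratios above 0 with the other virus too, short of the rule. Lonp1 had 1.60 with the control virus, and Eif2ak1 had 1.85 and Eif2b5 1.77 with shLarp1. Most of these calls rest on few input counts: 1 for Herpud1 and Trap1, 2 for Dnaja3, Eif2s3x and Eif2ak1, and 3 for Eif2b5 and Sel1l.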

How the data were processed

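A cDNA-PCR barcoding kit for nanopore sequencing was used, with no molecular identifiers, per the labels' protocols. The source is labelled cultured neurons, but the extraction text names fresh ganglia. The deposited table holds estimated counts (expected counts) per Ensembl gene in whole numbers, unscaled. The submitters' processing notes name minimap2, Salmon, GRCm39 and mm39; their versions, the annotation, any filter and the use of strand are not stated there. Of the Ensembl IDs, 13711 matched a symbol and 1680 did not; Gcn1 and Mars1 were matched through RefSeq synonyms.

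Counts were summed per group over 3 columns, as 1 sample each, and scaled by TMM factors (edgeR 4.0.16, R 4.3.3) after filterByExpr (minimum count 10), which left 8773 genes. A gene was tested where a group exceeded 3 counts (for the ratio of ratios, also no group at 0). The 1.5-fold rule was run on simulated Poisson counts. These hold only the counting noise that the interval assumes, so the run cannot show how the rule behaves with variation between libraries, cultures or PCR copies. Column tests with edgeR and DESeq2 1.42.0, other scalings, no filter, a 2-fold limit and leaving out each column were alternatives. Genes named beside the 10 were those of each list past the rule (at most 4 for the virus effect and 3 per direction for IP over input) and its most counted gene in the IP. Marker genes under that rule are given as counts and medians, apart from Uchl1. The 10 genes and all lists were chosen with earlier results of these data known.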

Additional observations from a re-analysis of the deposited data

How the results depend on the processing

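Of 840 values of single genes under an alternative, 795 kept their direction and call or stayed within the counting interval. The 2 that reversed were Ddit3 in IP over input with total counts (1.33 with shLarp1 and 0.86 with the control virus). Of 1883 values of the other genes named, 1492 did so and 5 reversed, all in IP over input with total counts: with shLarp1 Eif4ebp1 (0.10), Eprs (0.13), Hspe1 (1.0) and Nupr1 (0.18), and with the control virus Hspe1 (0.76). Depth limits every input value: a median of 2 counts per gene in each input group.

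The number of genes called over the whole table depended on the setting, and the cause was not tested unless the construction shows it. In the IP with shLarp1 over control (449 genes) it became 1066 with no filter and factors recomputed without it, where more genes are tested, 85 with a 2-fold limit, and 210 to 558 when single columns were left out, which with input columns left out also let Sesn2 through the filter. In input (90 genes) it became 216 with DESeq2 size factors, 160 with upper-quartile factors, 211 with total counts, 243 with a control IP column as the TMM reference (added after seeing the data), 19 with a 2-fold limit and 73 to 218 without single columns. The split of 13 higher to 77 lower became 181 to 35, 117 to 43, 7 to 204 and 214 to 29 under those 4 scalings. In the IP the split of 63 to 386 became 104 to 207 with upper-quartile factors and 105 to 204 with total counts. IP over input (3421 genes with shLarp1 and 3116 with the control virus) gave 6931 and 5200 with total counts, 2775 to 3344 and 2589 to 3252 without single columns. The ratio of ratios (515 genes) gave 112 with a 2-fold limit and 453 to 557 without single columns, and its split of 99 to 416 became 391 to 134 with total counts, 41 to 546 with DESeq2 size factors and 48 to 527 with the control IP reference. In IP over input the split of 2274 to 1147 with shLarp1 became 1328 to 1489 with upper-quartile factors and 6183 to 748 with total counts, and that of 2021 to 1095 with the control virus became 1293 to 1590 and 4549 to 651.

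Of the 10 genes, those called in the IP with shLarp1 over control went to 1 (Sesn2) with no filter, and 0 to 1 without single columns; in input and in the ratio of ratios there were 0 throughout. In IP over input 4 were called with shLarp1, which became 2 with upper-quartile factors, 8 with total counts, 2 with a 2-fold limit and 2 to 5 without single columns. With the control virus 2 were called, which became 1, 7, 1 and 1 to 2 under the same settings. Without shLarp1 input column 3, Atf5 (1.20) and Psat1 (2.06) were no longer called, and without control input column 2 or 3, Chac1 (2.04 each) was not.

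The column tests treat the columns as replicates. edgeR's quasi-likelihood test with Benjamini-Hochberg adjustment called 2434 genes in the IP, 779 in input, 5367 and 4862 in IP over input with shLarp1 and with the control virus, and 975 in the ratio of ratios. With a replicate block these were 2311, 754, 5275, 4772 and 955, and as many of the 8 genes were called in each comparison as without it. Same-numbered columns did not deviate together (correlations of -0.0635 to 0.0328 over 18 pairs, own number best in 14 of 36 cases). Columns that differ by little more than counting noise would give this with or without a shared culture, so pairing cannot be judged from it. DESeq2's Wald test called 1881 in the IP, 890 in input and 990 in the ratio of ratios. Among the 8 genes, edgeR called 0 in the IP (0 at an unadjusted p under 0.05), 0 in input (3) and 0 in the ratio of ratios (3), and DESeq2 0 in all 3 (0 unadjusted). In IP over input with the control virus, 4 of the 8 were called by each of the 3 fits, where edgeR called 4862 of the 8773 genes. With shLarp1, 6 of the 8 were called by edgeR with or without the block and 5 by DESeq2, where edgeR without the block called 5367 genes.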
